A study of Mus musculus with 8 samples.

Results

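The genes described here are Mvk and Pmvk, which encode mevalonate kinase and phosphomevalonate kinase, and Scap, which encodes the sterol-sensing escort protein of the SREBP transcription factors. They were found by gene symbol in the platform annotation, which gave 3 probes, 1 for each gene, among 20794 probes and 9030 named genes on the array. All 3 probes were measured on every array. The genes were chosen on their mutant over wild-type ratios in these same arrays, so those ratios are given as a description and not tested. Among the measured genes of cholesterol synthesis the next in order of mean, which was not chosen, was Mvd at a log2 ratio of 0.21 against 0.32 for Scap, the lowest of the chosen 3.

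The study hybridised total liver RNA of 4 male Abcb4-/- mice of the strain Balb/cByJ, aged 17 weeks, to 2-colour cDNA arrays. Each mutant was set against a pool of liver RNA from wild-type males of the same strain and age, which came from 4 animals by the sample labels and from 6 by the labelling protocol. Abcb4 encodes the transporter that moves phosphatidylcholine across the canalicular membrane of hepatocytes into bile, and the genotype label names no tissue to which its loss is limited. Each mouse was given 2 arrays, 1 with the mutant RNA in the dye Cy5 and 1 with it in Cy3. No untreated or wild-type mouse was hybridised on its own, so the spread among wild-type livers is not part of any value below.

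Cholesterol and all isoprenoids are built from mevalonate. HMG-CoA synthase (Hmgcs1) acts on the way to mevalonate, mevalonate kinase (Mvk) adds the first phosphate, phosphomevalonate kinase (Pmvk) the next, and the decarboxylase Mvd then yields isopentenyl diphosphate. Farnesyl diphosphate synthase (Fdps) joins these units, squalene synthase (Fdft1) commits them to sterols, and a chain of enzymes from Sqle to Dhcr7 finishes cholesterol. When sterols in the endoplasmic reticulum are low, Scap carries the SREBP precursors in COPII vesicles to the Golgi, where the proteases of Mbtps1 and Mbtps2 release them to switch on these genes; when sterols are high, Insig proteins hold Scap back. In liver the route supplies cholesterol for membranes, lipoproteins, bile and bile acids.

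The bases upstream of the 3 genes are shown because known SREBP target promoters combine an SREBP site with boxes for NF-Y and Sp1, and because Mvk begins back to back with Mmab, a gene with a probe of its own. Sequences are RefSeq's, on the plus strand of GRCm38.p6, 5′ to 3′, and end at the base before the first annotated start. Capitals mark CCAAT (the NF-Y box), GGGCGG (the Sp1 box) or TCACNCCAC (the SREBP site core), each searched on both strands, so that ATTGG is a CCAAT on the minus strand. The last line is the 29 bases around the 1 SREBP core match found upstream of Hmgcs1.
Mvk, chr5:114444074-114444263, reaching to the first base of Mmab: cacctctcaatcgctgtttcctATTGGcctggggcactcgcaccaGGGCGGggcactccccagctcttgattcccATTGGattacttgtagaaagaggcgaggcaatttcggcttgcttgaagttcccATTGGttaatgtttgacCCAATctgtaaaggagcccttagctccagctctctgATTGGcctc
Pmvk, chr3:89454291-89454540: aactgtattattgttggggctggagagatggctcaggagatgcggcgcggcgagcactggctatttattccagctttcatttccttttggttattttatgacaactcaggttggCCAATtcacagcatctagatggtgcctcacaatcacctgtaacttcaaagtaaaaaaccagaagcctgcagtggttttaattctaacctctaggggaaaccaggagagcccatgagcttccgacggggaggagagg
Scap, chr9:110333038-110333287: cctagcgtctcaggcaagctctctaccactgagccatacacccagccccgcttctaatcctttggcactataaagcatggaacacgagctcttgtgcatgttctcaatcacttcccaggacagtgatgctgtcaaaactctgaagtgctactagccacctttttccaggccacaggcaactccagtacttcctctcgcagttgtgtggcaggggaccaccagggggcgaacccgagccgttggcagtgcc
Hmgcs1, chr13:119690204-119690232: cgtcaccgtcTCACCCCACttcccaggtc

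The 190 bases between the starts of Mvk and Mmab held 5 NF-Y boxes and 1 Sp1 box, the Pmvk stretch held 1 NF-Y box, and the Scap stretch held none of the 3 motifs. In the table's windows, which run from 250 bases before to 50 after a start, Mvk held 5 NF-Y and 2 Sp1 boxes. The windows of Mvk and Mmab shared 259 of their 300 bases. Pmvk had 2 windows, of which the downstream one held no motif, and the 2 windows of Scap held 1 and 3 Sp1 boxes, none of them upstream of its first start. None of these 5 windows held the SREBP site core, which says only that these letters are not there. Of all 32851 windows, 37.4% held CCAAT, 35.7% GGGCGG and 1.24% TCACNCCAC. The cholesterol synthesis list, Mvk, Pmvk and Scap included, had 30 windows from 24 genes. Of these windows 19 held CCAAT, 24 held GGGCGG and 1, of Hmgcs1, held TCACNCCAC. Counted by gene it was 19, 21 and 1 of the 24.

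Several properties of the arrays bear on all values. The deposited numbers are log2 ratios, read here as mutant over pool, a direction that is likely but not stated. With the sign of all arrays turned, each value changes sign. On 20577 probes the columns of mouse 1 cancelled to within 0.012, so they were counted as 1 hybridisation. Means below are over mice 2, 3 and 4 with both dyes averaged. Over probes, the 2 arrays of a mouse had a Pearson correlation of 0.1 in mouse 2, -0.132 in mouse 3 and 0.007 in mouse 4. Each mouse mean thus averages 2 arrays that hardly agreed over the probes as a whole. Ratios spread most on the Cy3 array of mouse 3, where their SD was 0.561 and elsewhere 0.244 to 0.331, and means are given with and without that array. Mean ratios of like-named probes had a correlation of -0.0021 over 4847 pairs, which are not independent replicates, so like-named probes did not read alike. The gene names of the annotation may not match the rows they stand on, but this correlation cannot decide it. The 2 arrays of a mouse hardly agreed over probes either. Every named value below is that of the probe the annotation gives the name to. With 1 probe each, the names Mvk, Pmvk and Scap could not be checked. The probe named Abcb4 read 0.07, -0.11 and -0.18 on the Cy5 arrays of mice 2, 3 and 4 and -0.26, -1.20 and 0.05 on their Cy3 arrays. It was not known whether that probe lies in the deleted part, so it checks no label. No level of a liver marker could be checked either, since only ratios were used.

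Mvk, whose product is the first kinase of the route, had the highest mean. With the mutant in Cy5 its log2 ratio was 0.74 in mouse 2, 0.25 in mouse 3 and 0.58 in mouse 4. With the mutant in Cy3 it was 0.41 in mouse 2, 0.80 in mouse 3 and -0.14 in mouse 4. It was thus above 0 on 5 of 6 arrays, and its 2 arrays of mouse 4 lay 0.72 apart, on either side of 0. The means of mice 2, 3 and 4 were 0.57, 0.52 and 0.22, and the mean over them was 0.44 ± 0.19 (SD, n = 3), a 1.36-fold ratio. Its value on the mouse 3 Cy3 array was higher than 99.3% of all features there, yet the mean without that array was still 0.35 ± 0.20 (SD, n = 3). Without mouse 4 it was 0.55.

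Pmvk, the next kinase, was above 0 on all 6 arrays, as were 1024 of all features tested, or 6.1%. On the Cy5 arrays it read 0.23, 0.27 and 0.14 in mice 2, 3 and 4, a range of 0.13. On the Cy3 arrays it read 0.18, 0.62 and 0.56 in the same order. The arrays of mouse 2 lay 0.05 apart, while in mice 3 and 4 the Cy3 array stood above the Cy5 array by 0.35 and 0.42. The means of the mice were 0.20, 0.45 and 0.35, and the mean over them was 0.33 ± 0.12 (SD, n = 3), a 1.26-fold ratio. When only the Cy5 array stood for mouse 3 the mean was 0.28 ± 0.08 (SD, n = 3).

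Scap, the sterol sensor, was also above 0 on all 6 arrays, beside 6.1% of all features. Its Cy5 values were 0.41 in mouse 2, 0.12 in mouse 3 and 0.18 in mouse 4. Its Cy3 values were 0.23, 0.73 and 0.24 in the same mice. The single high value came from the Cy3 array of mouse 3, the array with the widest spread, where it exceeded 98.9% of features. The other 5 values lay between 0.12 and 0.41. The mean over mice was 0.32 ± 0.11 (SD, n = 3), a 1.25-fold ratio, and 0.22 ± 0.10 (SD, n = 3) when only the Cy5 array stood for mouse 3.

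**Figure D1:**
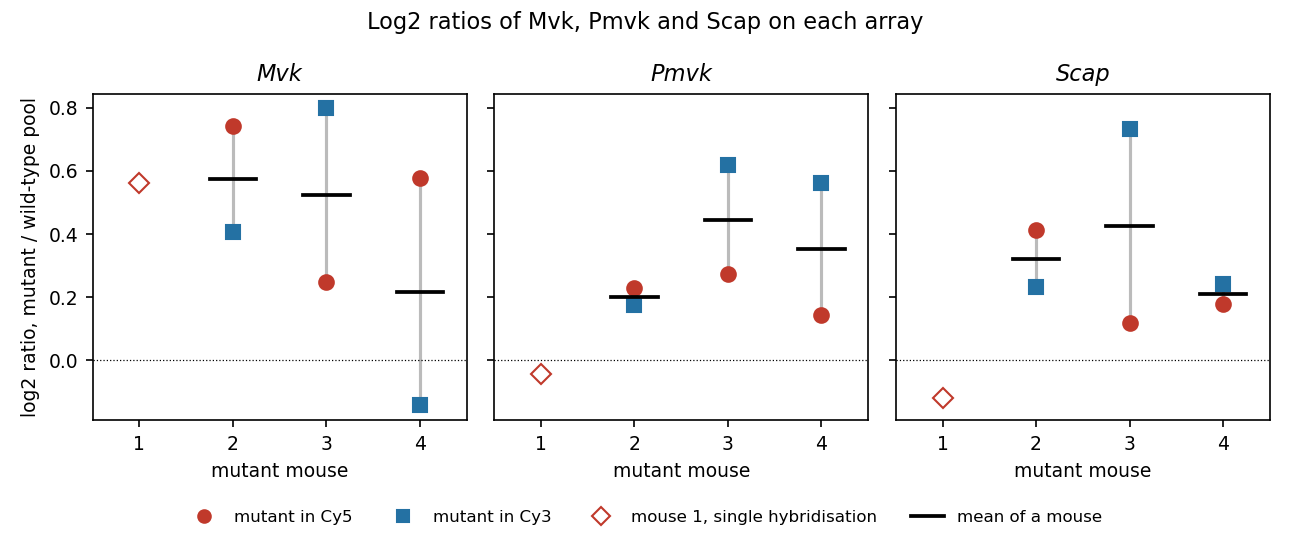
Log2 ratio (vertical axis) of Mvk, Pmvk and Scap in each mutant mouse (horizontal axis); circles are arrays with the mutant in Cy5, squares those with it in Cy3, bars the mean of a mouse and open diamonds the Cy5 column of mouse 1. In mice 2 to 4 all values but the Mvk Cy3 value of mouse 4 (-0.14) lie above 0, and in that column of mouse 1 only Mvk does; its other column has the signs turned.

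The order of the 3 means did not exceed their spread: the range of mouse means was 0.22 to 0.57 for Mvk, 0.20 to 0.45 for Pmvk and 0.21 to 0.42 for Scap, and the ranges overlap. Mvk and Pmvk did not vary alike from array to array. On the Cy3 array of mouse 4, for instance, Mvk was at -0.14 and Pmvk at 0.56. By the root mean square difference over the 6 arrays, Scap was the 42nd nearest of 8871 named genes to Pmvk, at 0.17, and Pmvk the 107th nearest to Scap. Scap was the 35th nearest to Mvk, at 0.28. Mvk ranked 1098th from Scap and 4508th from Pmvk, at 0.41, so the kinase pair stood further apart than either did from Scap. All 3 genes were chosen for their ratios on these same 6 arrays, so nearness among them follows in part from the choice. No support is drawn from these ranks. The threshold of 0.05 on limma's adjusted p over all 16796 features was passed by 0 of the 3 genes and by 0.333% of features, from which nothing is read here because the genes were chosen on this contrast.

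Mouse 1 was not used in the choice. Its 1 hybridisation, entered with the mutant in Cy5, gave 0.56 for Mvk, -0.04 for Pmvk and -0.12 for Scap. Mvk stood above 97.3% of features on that array, and its Cy5 values in mice 2, 3 and 4 were 0.74, 0.25 and 0.58. Pmvk stood above 34.0% and Scap above 19.0% of features, both below every Cy5 value of the other mice. The column entered with the mutant in Cy3 gives the opposite pattern, with Mvk at -0.56, Pmvk at 0.04 and Scap at 0.12, above 2.7%, 65.9% and 80.7% of features. Which of these columns runs from mutant to pool is not settled, so no direction is drawn from mouse 1. With 1 hybridisation and no dye swap, this has no replicate and was not tested. With the Cy5 column of mouse 1 added, the means were 0.47 for Mvk, 0.24 for Pmvk and 0.21 for Scap.

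Whether the probes read differently in the 2 dye orientations is a contrast that the choice did not use. The difference, mutant in Cy5 minus mutant in Cy3, was 0.17 ± 0.65 for Mvk, -0.24 ± 0.25 for Pmvk and -0.17 ± 0.41 for Scap (SD, n = 3 mice each). None of the 3 passed limma's test, with adjusted p of 0.794, 0.537 and 0.728, where 0.155% of features did. The SDs are as large as the differences or larger, so a dye effect of this size was not resolved and equal readings are not shown. Median centring or leaving out 1 mouse brought none of the 3 past the threshold. The Cy5 and Cy3 means were 0.52 and 0.35 for Mvk, 0.21 and 0.45 for Pmvk, and 0.24 and 0.40 for Scap. Each was above 0 in both orientations. Unlike the difference, these means make up the ratios on which the genes were chosen, so their signs are no separate support. Over all features, 72.6% were above 0 by the Cy5 mean and 46.6% by the Cy3 mean.

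**Figure D2:**
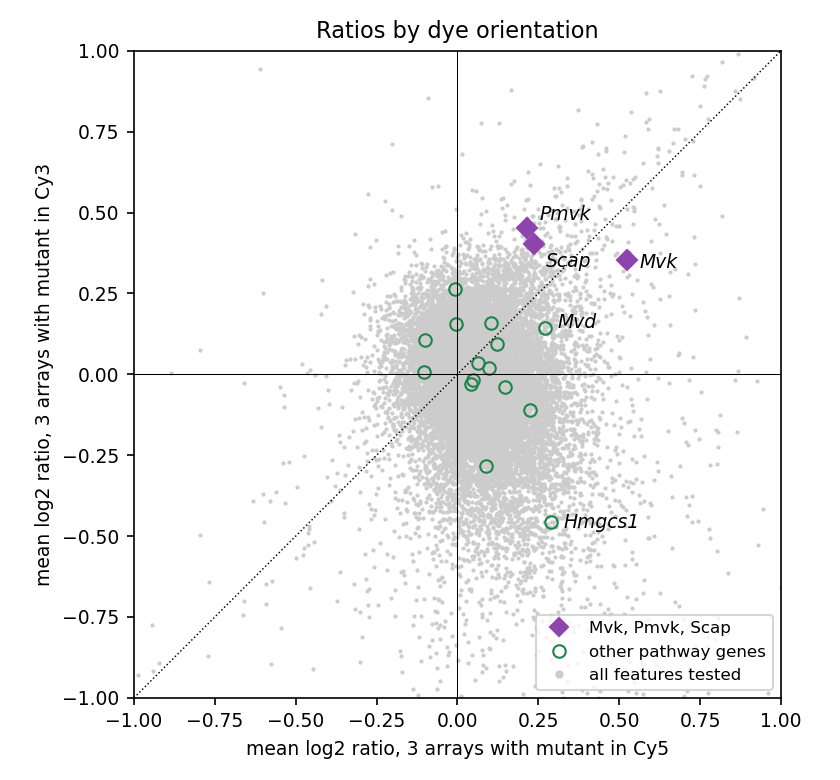
Mean log2 ratio over the 3 arrays with the mutant in Cy5 (horizontal) against that over the 3 arrays with it in Cy3 (vertical) for all 16796 features, with 125 beyond the axis limit of 1; diamonds are Mvk, Pmvk and Scap, open circles other genes of the pathway. The 3 diamonds, which were chosen on these arrays, lie above 0 on both axes, while Hmgcs1 lies at 0.29 and -0.46.

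Some values equalled a ratio of small whole numbers, which was not particular to these genes. Once the constant of an array is removed, the Mvk ratio was 5 to 2 on the Cy5 array of mouse 2 and 7 to 6 on the Cy3 array of mouse 3, the 2 highest of its values. The Pmvk ratio was 7 to 4 on the Cy5 array of mouse 2. No Scap value matched a ratio of whole numbers up to 10 within 0.001 on the log2 scale, and 11.5% of all values of mice 2 to 4 did. Intensities were not used here, so how near these spots lay to background was not tested.

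Along the mevalonate route, 6 of 11 listed genes had a probe. Mvk and Pmvk had the highest means of the 6, which follows from their choice on these arrays, and Mvd was next. Mvd, the decarboxylase that takes the product of Pmvk, was at 0.54, 0.10 and 0.17 on the Cy5 arrays of mice 2, 3 and 4 and at 0.07, 0.22 and 0.14 on the Cy3 arrays. It was above 0 on all 6 arrays, as were 6.1% of all features. Its mean was 0.21 ± 0.09 (SD, n = 3), and its adjusted p by limma was 0.411. Hmgcs1, which acts before Mvk, was at -0.08 ± 0.17, Fdps at 0.05 ± 0.04 and Ggps1, which makes geranylgeranyl diphosphate, at -0.05 ± 0.10 (SD, n = 3 each). None of these 4 passed the test, and Mvd alone of them had an unadjusted p under 0.05. Idi1 was not analysed here.

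The Hmgcs1 value, an average of 2 probes, differed in sign by dye. Its Cy5 values were 0.29, 0.21 and 0.36 in mice 2, 3 and 4, and its Cy3 values were -0.86, -0.21 and -0.30. All 3 of the first were above 0 and all 3 of the second below. The difference was 0.75 ± 0.37 (SD, n = 3) and did not pass limma's test (adjusted p = 0.143). Its 2 probes had means of 0.11 ± 0.07 and -0.28 ± 0.29 (SD, n = 3 each), and the lowest value, -1.52, belonged to the second probe on the Cy3 array of mouse 2. On the Cy3 array of mouse 3 the first probe read 0.11 and the second -0.54. The split by dye thus held in the second probe but not in the first. Over all features, 72.6% were above 0 by the Cy5 mean and 46.6% by the Cy3 mean.

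From squalene to cholesterol 9 genes were tested with limma, 0 passed, 0 had an unadjusted p under 0.05, and 8 had a mean above 0. Over all features 0.333% passed, 9.92% had an unadjusted p under 0.05 and 59.5% were above 0. After median centring 6 of the 9 were above 0, beside 46.1% of all features. By the Cy5 arrays alone it was 7, beside 72.6%, and by the Cy3 arrays alone 5, beside 46.6%. Fdft1, squalene synthase, was highest at 0.13 ± 0.12, with 5 of 6 arrays above 0. Ebp, the sterol isomerase, was at 0.13 ± 0.15, Sc5d, a desaturase of the last steps, at 0.11 ± 0.16, and Erg28 at 0.08 ± 0.06 (SD, n = 3 each). Sqle, squalene epoxidase, was at 0.06 ± 0.08, Msmo1, which removes methyl groups, at 0.06 ± 0.19, Cyp51, the lanosterol demethylase, at 0.02 ± 0.13 and Dhcr7, which makes the last reduction, at 0.01 ± 0.11 (SD, n = 3 each). Lbr, a sterol reductase of the nuclear envelope, was the 1 gene below 0, at -0.10 ± 0.27 (SD, n = 3), and spanned -0.63 to 0.26 over the arrays. The SD between mice was larger than the size of the mean in all of these but Fdft1 and Erg28.

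**Figure D3:**
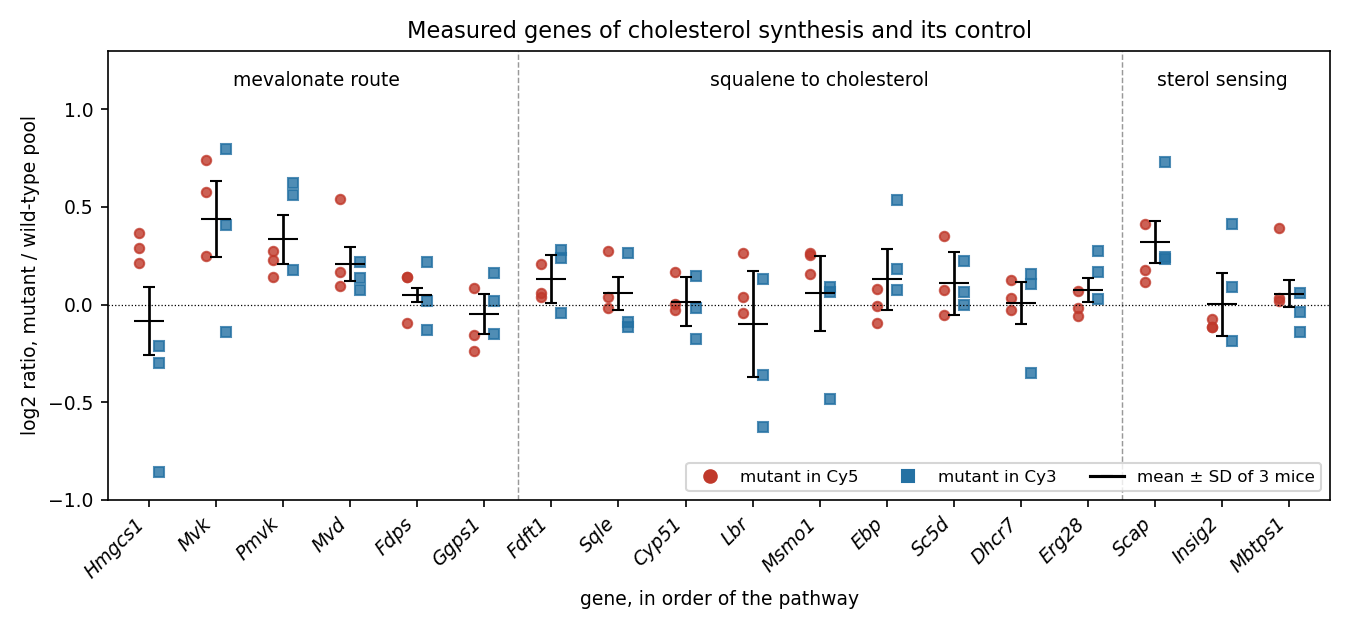
Log2 ratio (vertical axis) of measured genes in the order of the pathway (horizontal axis); circles are arrays with the mutant in Cy5, squares those with it in Cy3, and bars mean ± SD of 3 mice. Mvk, Pmvk and Scap, which were chosen on these values, have means from 0.32 to 0.44, and all other genes shown lie between -0.10 and 0.21.

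Taking the route, the sterol steps and the sterol sensor together, 17 of 30 listed genes were tested and 14 had a mean above 0. Without Mvk, Pmvk and Scap it was 11 of 14, or 78.6%, with a median of 0.05, beside 59.5% and a median of 0.02 over all features. The list held 0 genes past limma's threshold, and of the other 14 only Mvd had an unadjusted p under 0.05, where 9.92% of all features did. After each array was centred on its median, 8 of the other 14 were above 0, beside 46.1% of all features. By the Cy5 arrays alone it was 10 of 14, beside 72.6%, and by the Cy3 arrays alone 9 of 14, beside 46.6%. The list was drawn up with earlier results of these arrays known, so its counts are a description.

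Few of the proteins that work with Scap were measured. Insig2, which retains Scap in the endoplasmic reticulum, was at 0.002 ± 0.16, with Cy5 values from -0.12 to -0.07 and a Cy3 value of 0.41 in mouse 3. Mbtps1, the first protease, was at 0.05 ± 0.07 (SD, n = 3 each), and its array values ran from -0.14 to 0.39. Srebf1, Srebf2, Insig1 and Mbtps2 were not analysed here. The COPII genes Sec23a and Sec24b were at 0.11 ± 0.12 and 0.10 ± 0.08, and Sec13, a coat subunit, at -0.24 ± 0.28 (SD, n = 3 each). Of the other COPII genes tested, Sec24c was at 0.05 ± 0.05, Sec23b at -0.02 ± 0.13 and Sar1a at -0.02 ± 0.05 (SD, n = 3 each). The lowest Sec13 value, -1.14, was on the Cy3 array of mouse 3. Of 12 tested genes of sterol sensing and transport other than Scap, 7 were above 0, 0 passed limma's threshold, and 0 had an unadjusted p under 0.05, beside 59.5%, 0.333% and 9.92% of all features. After median centring 4 of the 12 were above 0, beside 46.1%.

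Relatives of the 3 genes in sequence or position had ratios nearer 0. Mmab, which encodes an adenosyltransferase of cobalamin metabolism and shares the start region printed above with Mvk, read 0.01, 0.10 and 0.29 on the Cy5 arrays of mice 2, 3 and 4 and 0.16, -0.06 and -0.18 on the Cy3 arrays. Its mean was 0.05 ± 0.03 (SD, n = 3; limma, adjusted p = 0.869), and the Cy5 column of mouse 1 gave -0.13. The difference between Mvk and Mmab was not tested, since Mvk was chosen for its value. Kcnn3, a potassium channel gene next to Pmvk, was at 0.10 ± 0.07 (SD, n = 3), and the other neighbours were not analysed here. Of the same GHMP family as Mvk, Fcsk, a sugar kinase, was at 0.08 ± 0.10 and Mvd, described above, at 0.21 ± 0.09 (SD, n = 3 each). Of other proteins with a sterol-sensing domain or a like one, Ptch1, the hedgehog receptor, was at -0.03 ± 0.23, Disp1 at -0.09 ± 0.49 and Dhcr7 at 0.01 ± 0.11 (SD, n = 3 each).

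Of the genes that use or answer to the pathway 0 passed limma's threshold, which 0.333% of all features passed, and 1, Thrsp, had an unadjusted p under 0.05. Their counts above 0 stand beside 59.5% of all features, 46.1% after median centring, 72.6% by the Cy5 arrays and 46.6% by the Cy3 arrays. Of 6 tested targets of the sterol-responsive SREBP, Hmgcs1, Sqle, Fdps and Mmab among them, 4 were above 0, with means from -0.10 for Tmem97 to 0.06 for Sqle; after centring it was 3, by Cy5 6 and by Cy3 2. Of 16 lipogenic SREBP targets 6 were above 0, 3 after centring, 11 by Cy5 and 3 by Cy3. Their median was -0.02, and the lowest was Thrsp, a lipogenic regulator, at -0.36 ± 0.21 (SD, n = 3), below 0 on all 6 arrays (limma, adjusted p = 0.236). Fasn, fatty acid synthase, was at 0.01 ± 0.16 (SD, n = 3). Of 16 genes that use isoprenoids for prenylation, dolichol or ubiquinone, 8 were above 0, 8 after centring, 11 by Cy5 and 9 by Cy3, and the extremes were Coq3 at 0.15 ± 0.10 and Trit1 at -0.20 ± 0.26 (SD, n = 3 each). Dolk, the dolichol kinase, was at 0.15 ± 0.05 (SD, n = 3) and above 0 on all 6 arrays, as were 6.1% of all features. Of 13 genes of cholesterol transport and lipoproteins 9 were above 0, but 5 after centring, 11 by Cy5 and 3 by Cy3. Their means ran from Vldlr at -0.11 ± 0.51 to Scarb1, the HDL receptor, at 0.18 ± 0.32 (SD, n = 3 each).

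The named genes most like each of the 3 over the 6 arrays came from elsewhere. Nearest to Mvk were Ngb, Tspan14 and Pcdhga12, at root mean square differences of 0.21, 0.22 and 0.23 on the log2 scale. Pcdhga12 belongs to a protocadherin cluster whose members share exons, so its probe may read several of them. Nearest to Pmvk were Lrrc20 at 0.07, Cilk1 at 0.10 and Elof1 at 0.11. Nearest to Scap were Dnpep at 0.08, Cbr4 at 0.08 and Il2 at 0.10. In the Cy5 column of mouse 1, which this order did not use, Ngb was at -0.10 where Mvk was at 0.56, and Cbr4 at 0.45 where Scap was at -0.12.

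Bulk RNA ratios do not separate a change in the number of cells of a type from a change in RNA per cell. Of 8 tested hepatocyte markers 5 were above 0, with a median of 0.005 and means from -0.06 for Ttr to 0.12 for Fgb. Of 8 bile duct markers 6 were above 0, with a median of 0.08 and means from -0.20 ± 0.14 for Cldn4 to 0.81 ± 1.10 for Krt7 (SD, n = 3 each). Of 9 stellate cell markers 5 were above 0, and their means ran from -1.02 ± 0.60 for Dcn to 0.23 ± 0.24 for Des (SD, n = 3 each). Endothelial markers ran from -0.39 for Eng to 0.23 for Cdh5, macrophage markers from -0.37 for Itgam to 0.16 for Cd5l, and lymphocyte markers from -0.47 for Cd5 to 0.17 for Cd3g, with 4 of 7, 3 of 5 and 3 of 7 above 0. Neutrophil markers ran from -0.03 for S100a9 to 0.58 for Elane with 7 of 10 above 0, red blood cell markers from -0.19 for Alas2 to 0.22 for Tspo2 with 3 of 5, and fat markers from -0.08 for Fabp4 to 0.17 for Plin4 with 3 of 5. Pancreas markers ran from 0.04 for Cpa1 to 0.36 for Zg16 with 5 of 5 above 0, and muscle markers from -0.16 for Myl1 to 0.35 for Pvalb with 7 of 8. These counts above 0 stand beside 59.5% of all features. After median centring, where 46.1% of all features were above 0, the counts in the order given were 3, 6, 4, 3, 1, 2, 5, 3, 3, 5 and 6. In these lists 0 genes passed limma's threshold, beside 0.333% of all features. An unadjusted p under 0.05, which 9.92% of all features had, was found for 3 of 5 pancreas, 3 of 7 endothelial, 3 of 8 bile duct, 3 of 8 muscle and 2 of 10 neutrophil markers, for 1 marker each of stellate cells, macrophages and lymphocytes, and for 0 of hepatocytes, red blood cells and fat. The part of other cell types in the ratios of Mvk, Pmvk and Scap was not tested.

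Across the settings tried, the 3 means kept their sign except where a direction was turned. All settings used arrays on which the genes were chosen, so the kept signs are no separate support. Leaving out a mouse gave 0.37 to 0.55 for Mvk, 0.28 to 0.40 for Pmvk and 0.27 to 0.37 for Scap. Centring each array on its median gave 0.41, 0.30 and 0.29, and scaling after it 0.38, 0.27 and 0.25. With the sign of the Cy3 arrays alone turned, the means were 0.084, -0.12 and -0.083, and none of them exceeded its SD.

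**Figure D4:**
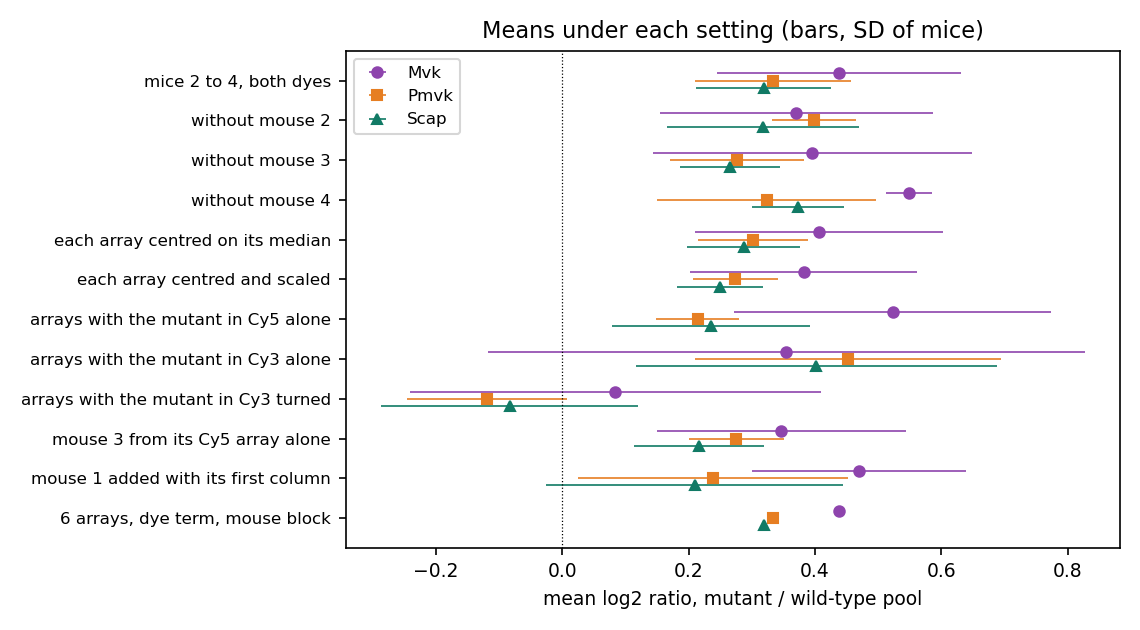
Mean log2 ratio (horizontal axis) of Mvk, Pmvk and Scap under each processing setting (rows), with bars for the SD over mice where a setting gives one. All means lie between 0.21 and 0.55 except those with the sign of the Cy3 arrays turned, which lie between -0.12 and 0.084; the setting with all arrays turned mirrors the first row and is not drawn.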

How the data were processed

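The deposited table holds 1 column of log2 ratios for each of 8 samples, and for the authors' scanner, background correction, normalization, centring and direction no statement was found in the labels. The log2 scale was read from the deposited values: once the constant of an array is removed, many are ratios of small whole numbers. Those constants were between -0.59 and -0.39 on the Cy5 arrays of the mutants and between 0.57 and 0.62 on their Cy3 arrays, so columns were used as deposited, with both orientations taken to run the same way. Column medians ran from -0.06 to 0.08. Values above 15 in size, 19 to 83 an array, were placeholders and were left out.

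Probes were named from the platform annotation (12771 of 20794 with 1 symbol, 0 with several, 8023 unnamed), and 0 symbols changed by Entrez identifier against GRCm38.p6. Probes of a gene were averaged per array. Mouse means over both dyes were fitted against 0 with limma 3.58.1 in R 4.3.3, two-sided, with Benjamini-Hochberg adjustment over 16796 features measured in both orientations of 3 mice. Orientation differences were fitted likewise. The fit was tested on simulated data with known answers.

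The members and lists were chosen with earlier results of these data known. Named are Mvk, Pmvk and Scap, every measured gene of the route, of sterol synthesis and of the SREBP, Insig and protease group, and of other lists the highest and lowest. Dolk, Fasn, Sec23a, Sec23b, Sec24b, Sec24c and Sar1a were added after their values were seen. Likeness took the 3 named genes with the smallest root mean square difference over 6 arrays. The mice are separate animals, their number limits the precision, and the 1 pool leaves out the spread of wild-type mice. Alternatives were other sets of mice and arrays, centring, scaling, a mouse block with a dye term, single probes, filters, an unmoderated test and turned signs.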

Additional observations from a re-analysis of the deposited data

Results flagged for a closer look

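In 18 named genes of the pathway and in the spread of the arrays, the 7 separate hybridisations were screened for a value far from the rest; chance marks about 1 in 20 such groups. Mvd stood at 0.54 on the Cy5 array of mouse 2, apart from its values on the other hybridisations. On the Cy3 array of mouse 3 the SD of ratios was 0.561, apart from the rest, and the same array gave the highest values of Mvk, Pmvk and Scap. For Hmgcs1, averaged over 2 probes, the Cy5 values were all above 0 and the Cy3 values all below. The difference of 0.75 did not pass limma's test (adjusted p = 0.143), and 1 of the probes read 0.11 on the Cy3 array of mouse 3.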

How the results depend on the processing

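The direction of the columns decided the sign of the 3 genes. With all arrays turned the means were -0.44 for Mvk, -0.33 for Pmvk and -0.32 for Scap by construction. With the Cy3 arrays alone turned, which takes the orientation difference of the mice, they were 0.084, -0.12 and -0.083. Adding the Cy5 column of mouse 1 moved Scap to 0.21. The other settings moved no mean of the 3 by more than its SD.

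The count of features past the threshold, 56, was 1 without mouse 2, 24 without mouse 3 and 0 without mouse 4, a range of 0 to 24. It was 26 with median centring, 28 with scaling as well, 18 on Cy3 arrays alone, 26 with these turned, 23 with mouse 3 from its Cy5 array alone, 85 with mouse 1 added, 132 with all 6 arrays and a mouse block, 123 on single probes, 183 without features holding a ratio of small whole numbers (7996 tested) and 0 with an unmoderated test, which gave 1310 at an unadjusted p under 0.05. The orientation count, 26, was 3 after centring, 398 without mouse 2, 0 without mouse 3 and 101 without mouse 4. The causes were not tested. Of the 14 genes of the cholesterol synthesis list other than Mvk, Pmvk and Scap, 0 passed in any setting run; 8 to 11 were above 0 in the settings that fitted all 14 and turned no sign, 9 with the Cy3 arrays turned and 3 with all turned. Signal over background was not used here, so which of these ratios rest on weak spots is unknown. The arrays of a mouse are paired by dye: the orientation contrast is taken within mice, and the mouse block is the fit with 132 calls. In that fit the arrays of a mouse had an estimated correlation of 0.024, so the 6 arrays counted almost as separate ones.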
